A study of Mus musculus with 8 samples.

Results

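The expression of 10 transcription factors of the oligodendrocyte lineage was followed in brain RNA sequencing of mice labelled Nsun5-KO and WT. They were taken by gene symbol from the deposited count table, in which all 10 were found among 54532 genes, and all 10 passed the low-count filter that left 16062 genes for testing. Per the labels, the animals were 3-month-old male mice from the same litter, and nothing else about the knockout allele is given. There were 4 libraries labelled WT and 4 labelled Nsun5-KO, with 15642086 to 17829523 counts each. The labels describe 5 mice of each genotype but do not tie a library to a mouse, so the p-values below measure the spread between these libraries, which may be technical. Nsun5, the RNA methyltransferase gene named in the label, did not separate the groups, at 5.74 ± 0.538 CPM (counts scaled to a common library size) in WT against 6.28 ± 0.887 CPM in those labelled Nsun5-KO (SD over 4 libraries each). Its count therefore did not bear out the labels, so directions are given for libraries by their label. General neuronal, astrocyte and myelin genes were abundant, such as Snap25 with 33427 to 53730 counts per library. The cerebellar genes Gabra6 and Pcp2, chosen after their values were seen, had at most 30 and 19 counts, although the design text names the whole brain.

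Oligodendrocytes, the myelin-forming cells of the brain, arise from dividing precursors under a cascade of transcription factors. Olig2 and Olig1 specify the lineage, Sox10 is kept from the precursor to the mature cell, and Sox10 together with Myrf switches on the myelin genes when precursors leave the cell cycle. Other factors time that switch or hold cells in the precursor state. The early class here was Olig1, Olig2, Nkx2-2, Sox8, Sox10 and Sox6, which are present from specification or the precursor stage on. The late class was Myrf, Nkx6-2 and Zfp488, which are present from differentiation on, and Zfp536 was placed in neither. In bulk tissue, fewer cells of the lineage and less RNA per cell cannot be told apart.

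The 10 genes lie on 7 chromosomes (coordinates in mm10, from the deposited table), and the table's exonic length of each matched the GENCODE M21 model. Olig2 (chromosome 16, 91225457 to 91228677, plus strand) and Olig1 (91269772 to 91271933, plus strand) are neighbours, 41094 bases apart. Sox6 (115470872 to 116038796), Zfp536 (37472135 to 37773641) and Nkx6-2 (139579376 to 139582797) lie on the minus strand of chromosome 7. Sox10 is on chromosome 15 (79154908 to 79165240), Myrf on chromosome 19 (10208272 to 10240748), Sox8 on chromosome 17 (25565892 to 25570686), Zfp488 on chromosome 14 (33967070 to 33978764) and Nkx2-2 on chromosome 2 (147177546 to 147194243), all on the minus strand. The library kit does not mark strand, so overlapping genes on opposite strands could matter for 2 members with abundant partners. Nkx6-2 shares 246 exonic bases at its end with Inpp5a, a phosphatase gene with 763 to 1249 counts per library, and Sox8 shares 329 with the antisense RNA 2810468N07Rik (290 to 516 counts) in the GENCODE M21 models. Inpp5a itself was at a log2 fold change of -0.02 (SE 0.108). By the coordinates of the deposited table Sox8 overlaps no other gene, so whether its count is affected is not known. Sox10, Myrf, Olig2 and Zfp488 overlap no other annotated gene in either source.

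RefSeq promoter windows (GRCm38.p6) were at hand for 7 of the 10 genes, and not for Olig1, Sox10 and Myrf. The windows of both late factors in that set and of Olig2 are shown, picked by their estimated log2 fold changes (-0.64, -0.25 and -0.20). The 95% intervals of these estimates overlap (-1.13 to -0.15, -0.64 to 0.14 and -0.39 to -0.0056), so the 3 genes are not shown to differ. Each is the sequence just before the annotated start, read 5′ to 3′ on the gene's strand, with capitals marking CCAAT on either strand. The Olig2 window ends at the first annotated exon.
Nkx6-2 (chr7:139582798-139583047, minus strand): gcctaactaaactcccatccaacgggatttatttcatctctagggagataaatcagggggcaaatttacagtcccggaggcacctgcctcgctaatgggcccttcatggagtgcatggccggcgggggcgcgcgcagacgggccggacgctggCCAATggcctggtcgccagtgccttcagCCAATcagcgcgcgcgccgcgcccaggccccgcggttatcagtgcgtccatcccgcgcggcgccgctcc
Zfp488 (chr14:33978765-33979014, minus strand): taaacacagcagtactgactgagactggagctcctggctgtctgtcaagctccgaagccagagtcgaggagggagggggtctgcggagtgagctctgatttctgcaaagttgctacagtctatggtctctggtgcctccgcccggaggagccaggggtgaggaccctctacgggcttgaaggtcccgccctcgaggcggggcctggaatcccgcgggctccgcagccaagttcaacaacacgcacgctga
Olig2 (chr16:91225300-91225456, plus strand): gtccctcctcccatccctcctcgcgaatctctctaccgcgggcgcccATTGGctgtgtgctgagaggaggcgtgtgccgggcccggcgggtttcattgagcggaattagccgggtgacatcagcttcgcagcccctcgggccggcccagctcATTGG
CCAAT occurred at 2 places in the Nkx6-2 window and at 2 in the Olig2 window, but not in that of Zfp488. It is found in 33.8% of all 32851 RefSeq windows of 250 bases. The Sox core ACAAAG, found in 16.5% of windows, and the E-boxes CAGCTG (13.0%) and CATATG (3.5%) were in none of these 3, while a second Sox core, ACAATG (10.7%), was in the full 250-base window of Olig2 alone of them. All motifs were searched on both strands. The letters of a window say nothing about which factors bind there.

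Per unit of length, the members spanned a wide range of levels in WT (deposited FPKM, which divides by gene length and library size). Olig1 was highest at 53.7 ± 8.81 FPKM, with no overlap with any other member. Sox8 (17.2 ± 2.58) and Sox10 (16.9 ± 1.54) followed with overlapping values, and then Olig2 (10.5 ± 0.602) and Nkx6-2 (9.06 ± 1.18), which overlapped too. Myrf was at 6.16 ± 0.634 FPKM, clear of its neighbours in that order. Zfp536 (1.92 ± 0.272), Sox6 (1.72 ± 0.101) and Nkx2-2 (1.53 ± 0.131) overlapped in sequence, and Zfp488 was lowest at 1.04 ± 0.118. In the libraries labelled Nsun5-KO, Sox10 (9.605 to 14.89 FPKM) and Sox8 (16.15 to 17.85 FPKM) did not overlap.

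All 10 members had a lower mean in the libraries labelled Nsun5-KO, but none passed the test over all genes. The edgeR quasi-likelihood test called 0 of the 10 at an adjusted p below 0.05, against 0% of all 16062 genes, and its smallest adjusted p over all genes was 0.178. At an unadjusted p below 0.05, 5 members were lower (Sox10, Myrf, Nkx2-2, Nkx6-2 and Olig2), where 5.05% of all genes were lower by that measure. The groups did not overlap in 4 members (Sox10, Myrf, Nkx2-2 and Nkx6-2), all lower, where 2.71% of all genes had separate groups with the lower values in the libraries labelled Nsun5-KO. Some of the members, though not all, varied together over the libraries, so these counts are not of independent genes. Sox8 and Zfp536 had no stable direction: Sox8 turned to 0.0046 without WT replicate 2 and 0.041 without WT replicate 4, and Zfp536 to 0.079 when WT replicate 3 was left out and to 0.0057 when replicate 2 labelled Nsun5-KO was.

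**Figure D1:**
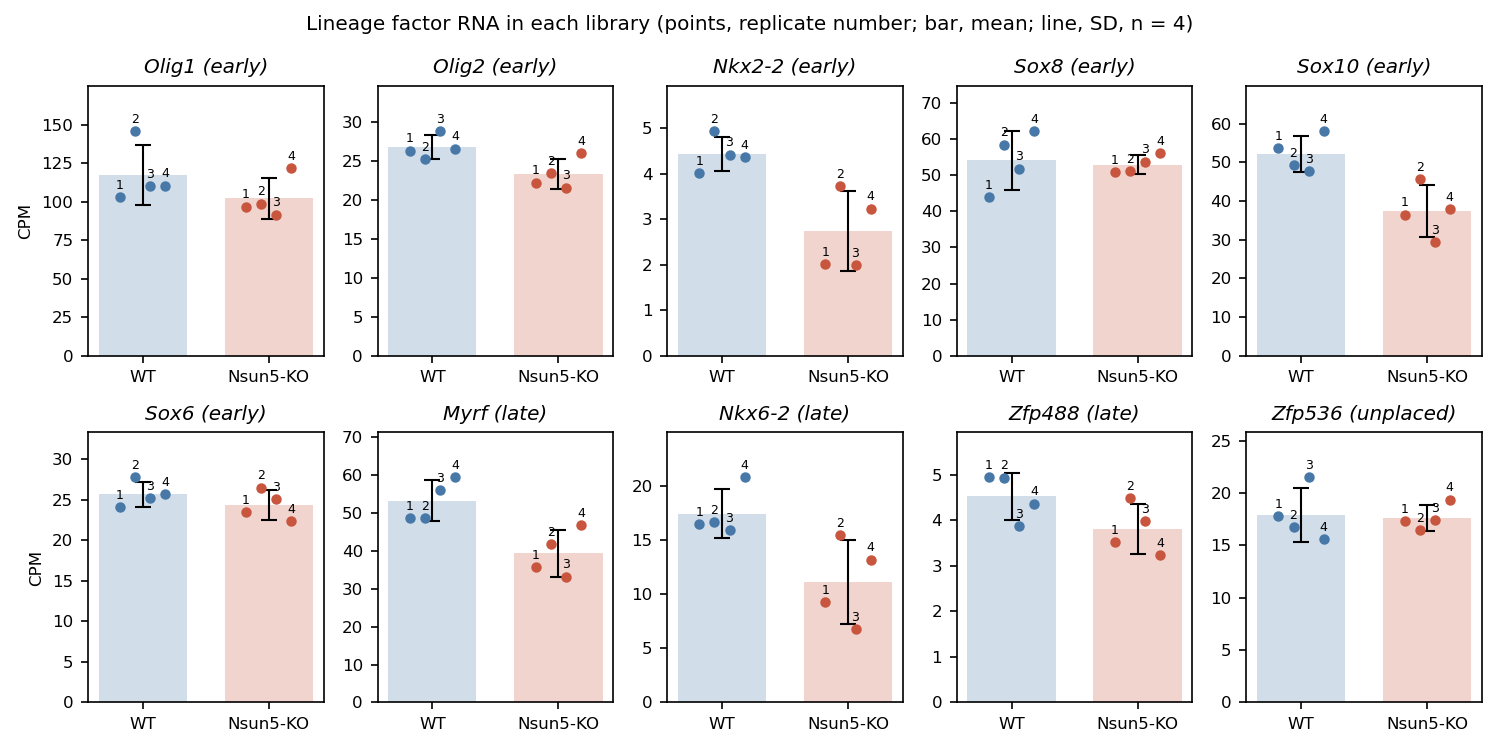
CPM of each factor (vertical axis, from 0) in the 4 WT libraries (blue) and the 4 labelled Nsun5-KO (red); points carry the replicate number, bars are means and lines the SD. Sox10, Myrf, Nkx2-2 and Nkx6-2 show no overlap between the groups. Replicates 1 and 3 labelled Nsun5-KO are the lowest for each of these 4 and also for Olig1 and Olig2.

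Among the early factors, Sox10, the HMG-box factor that drives terminal differentiation, had 53.6, 49.2, 47.8 and 58.1 CPM in WT replicates 1 to 4 and 36.5, 45.65, 29.4 and 37.96 CPM in replicates 1 to 4 labelled Nsun5-KO. Every library labelled Nsun5-KO lay below every WT library, with replicate 3 the lowest and replicate 2 closest to WT. The mean was 71.6% of WT (a log2 fold change of -0.48 with SE 0.12 and a 95% interval of -0.74 to -0.22), the edgeR adjusted p was 0.313, and the exact two-sided permutation p of CPM was 0.0286, the smallest that 70 labelings allow. Without the low-count filter edgeR called Sox10 lower (adjusted p = 0.04), where 0.107% of 28997 genes were called lower. DESeq2 gave Sox10 an adjusted p of 0.0543 and called no member, where it called 0.262% of its tested genes lower.

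Nkx2-2, a homeodomain factor that times precursor differentiation, was sparse, with 69, 77, 73 and 77 counts in WT and 32, 63, 32 and 57 in replicates 1 to 4 labelled Nsun5-KO. In CPM these were 4.01, 4.94, 4.415 and 4.37 against 2.01, 3.72, 1.99 and 3.23. The groups did not overlap, and replicates 1 and 3 labelled Nsun5-KO held about the same low value. Its mean was 61.8% of WT (log2 fold change -0.69, SE 0.231, edgeR adjusted p = 0.385, exact permutation p = 0.0286). Counting error alone gives a coefficient of variation of 12.9% at its mean count, against an observed 31.9% between the libraries labelled Nsun5-KO. Nkx2-2 is also expressed by ventral neurons, and the 6 tested hypothalamic markers were all below WT in these libraries (5 at an unadjusted edgeR p below 0.05, 0 called by edgeR, 4 by DESeq2), with a median log2 fold change of -1.86. The summed level of the whole list of 10 was 32.0 to 61.2 CPM in WT and 13.9 to 24.7 CPM in those labelled Nsun5-KO, no listed gene was at 0 in all libraries, and 4 of the 10 (Agrp, Otp, Fezf1 and Nr5a1) were too sparse to test. Relative to the WT mean the tested markers stood at -1.92, -1.73, -1.57 and -0.72 in replicates 1 to 4 labelled Nsun5-KO. Nkx2-2 was at -1.09, -0.24, -1.11 and -0.44 in the same libraries. The part of ventral neurons in the Nkx2-2 value was not tested.

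Olig2, the bHLH factor required to form the lineage, had 26.3, 25.2, 28.85 and 26.6 CPM in WT and 22.2, 23.4, 21.6 and 26.0 CPM in those labelled Nsun5-KO. Only replicate 4 labelled Nsun5-KO reached the WT range. The mean was 87.1% of WT (log2 fold change -0.20, SE 0.0886, edgeR adjusted p = 0.467, exact permutation p = 0.0571). Olig1, its neighbour and paralogue, with a role in maturation and repair, had 102.9, 145.8, 109.9 and 110.4 CPM in WT and 96.65, 98.6, 91.65 and 121.8 CPM in those labelled Nsun5-KO. WT replicate 2 stood high and replicate 4 labelled Nsun5-KO lay within the WT range, so the mean of 87.2% of WT (log2 fold change -0.20, SE 0.12, 95% interval -0.46 to 0.066) did not exceed the spread between libraries. Without WT replicate 2 the log2 fold change of Olig1 was -0.08, and without replicate 4 labelled Nsun5-KO it was -0.29.

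Sox8, the close relative of Sox10 in the SoxE family, had 43.8, 58.4, 51.8 and 62.2 CPM in WT and 50.75, 51.1, 53.7 and 56.2 CPM in those labelled Nsun5-KO. All 4 libraries labelled Nsun5-KO lay inside the WT range, and the interval of its log2 fold change ran from -0.25 to 0.19. Sox6, a SoxD factor that holds precursors back from differentiating and is also used by cortical interneurons, had 24.1 to 27.8 CPM in WT and 22.35 to 26.5 CPM in those labelled Nsun5-KO. Its log2 fold change was -0.08 (SE 0.0872, 95% interval -0.27 to 0.11), with overlapping groups. It was -0.040 when replicate 4 labelled Nsun5-KO was left out, -0.043 when WT replicate 2 was, and -0.13 when replicate 2 labelled Nsun5-KO was. Interneuron markers, the other cells that express Sox6, had 5 of 10 members below WT and a median of -0.074.

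Among the late factors, Myrf, the membrane-bound factor that cleaves itself free and activates myelin genes in postmitotic oligodendrocytes, had 48.6, 48.7, 56.1 and 59.4 CPM in WT. The libraries labelled Nsun5-KO had 35.65, 41.8, 33.2 and 46.75 CPM, all below WT. Replicates 1 and 3 were again the lowest, and replicate 4 lay just under the lowest WT library. The mean was 74.0% of WT (a log2 fold change of -0.43 with SE 0.113 and a 95% interval of -0.68 to -0.19), with an edgeR adjusted p of 0.313 and an exact permutation p of 0.0286. Without the low-count filter edgeR called Myrf lower (adjusted p = 0.0437), as it did Sox10 and no other member.

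Nkx6-2, a homeodomain factor of maturing oligodendrocytes needed for orderly paranodes, had 16.5, 16.6, 15.9 and 20.8 CPM in WT and 9.24, 15.4, 6.78 and 13.2 CPM in those labelled Nsun5-KO. Replicates 1 and 3 labelled Nsun5-KO had the low values, while replicate 2 lay just under the lowest WT library. The mean was 64.0% of WT (log2 fold change -0.64, SE 0.221, edgeR adjusted p = 0.406, exact permutation p = 0.0286), and the coefficient of variation was 12.8% among WT libraries and 34.7% among those labelled Nsun5-KO. Zfp488, a zinc finger partner of Olig2 that favours differentiation, had 4.94, 4.94, 3.87 and 4.37 CPM in WT and 3.52, 4.49, 3.98 and 3.23 CPM in those labelled Nsun5-KO. Its groups overlapped, and at 56 to 85 counts per library its interval was wide (log2 fold change -0.25, 95% interval -0.64 to 0.14).

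Zfp536, a zinc finger repressor of neuronal differentiation that neurons and glia both express, was placed in neither class. It had 15.6 to 21.5 CPM in WT and 16.5 to 19.35 CPM in those labelled Nsun5-KO (log2 fold change -0.02, SE 0.114).

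**Figure D2:**
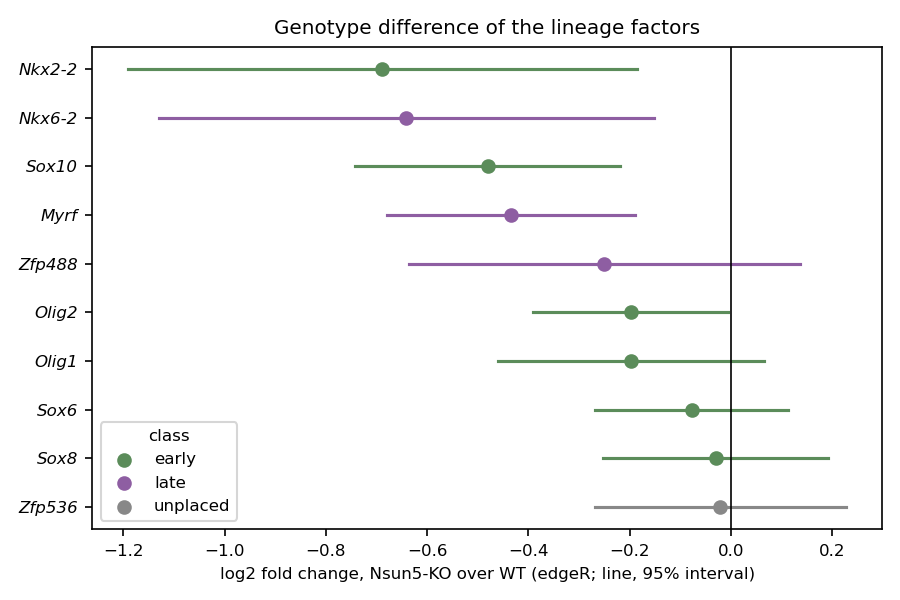
Log2 fold change of each factor (horizontal axis, libraries labelled Nsun5-KO over WT) with its 95% interval, coloured by class. The intervals of Nkx2-2, Nkx6-2, Sox10, Myrf and Olig2 lie below 0, and early and late factors are interleaved along the axis.

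Set against each other, the late factors lay lower than the early ones, but not beyond the spread between libraries. The median log2 fold change was -0.43 for the 3 late factors and -0.20 for the 6 early ones, where the median of all genes tested was -0.0055. Relative to the WT mean, the late class stood at -0.61, -0.17, -0.73 and -0.35 (mean log2 CPM) in replicates 1 to 4 labelled Nsun5-KO, and the early class at -0.39, -0.15, -0.43 and -0.17. Late minus early was -0.22, -0.026, -0.30 and -0.18 in those libraries and 0.088, -0.11, -0.057 and 0.080 in WT, so replicate 2 labelled Nsun5-KO lay inside the WT range. Both classes held members on each side: the early factors Sox10 and Nkx2-2 (-0.48 and -0.69) lay beside the late factors Myrf and Nkx6-2 (-0.43 and -0.64), and the late factor Zfp488 (-0.25) beside Olig1 and Olig2 (-0.20 each). No p is given for these class values, because the members were chosen with results of these data known.

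The low values fell in the same libraries for the 4 members without overlap. Replicates 1 and 3 labelled Nsun5-KO were also the lowest for Olig1 and Olig2, but not for Sox8, Sox6, Zfp488 or Zfp536. Relative to the WT mean, replicate 3 labelled Nsun5-KO was at -0.82 for Sox10, -0.67 for Myrf, -1.34 for Nkx6-2 and -1.11 for Nkx2-2. Replicate 2 labelled Nsun5-KO was at -0.19, -0.34, -0.17 and -0.24 for the same genes. Leaving out both replicates 1 and 3 labelled Nsun5-KO moved the log2 fold changes to -0.32 for Sox10, -0.27 for Myrf, -0.29 for Nkx6-2 and -0.35 for Nkx2-2. Of these 4 genes, Sox10 and Myrf kept an unadjusted edgeR p below 0.05 in that comparison of 4 against 2 libraries. With the group means removed, Nkx6-2 varied over the 8 libraries with Sox10 (r = 0.929), Nkx2-2 (r = 0.86) and Myrf (r = 0.808). Sox8 did not vary with Sox10 (r = -0.0025). Myrf was at r = 0.85 with Olig2, 0.605 with Sox10 and -0.45 with Zfp488. These correlations share library and depth and are given as a description.

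**Figure D3:**
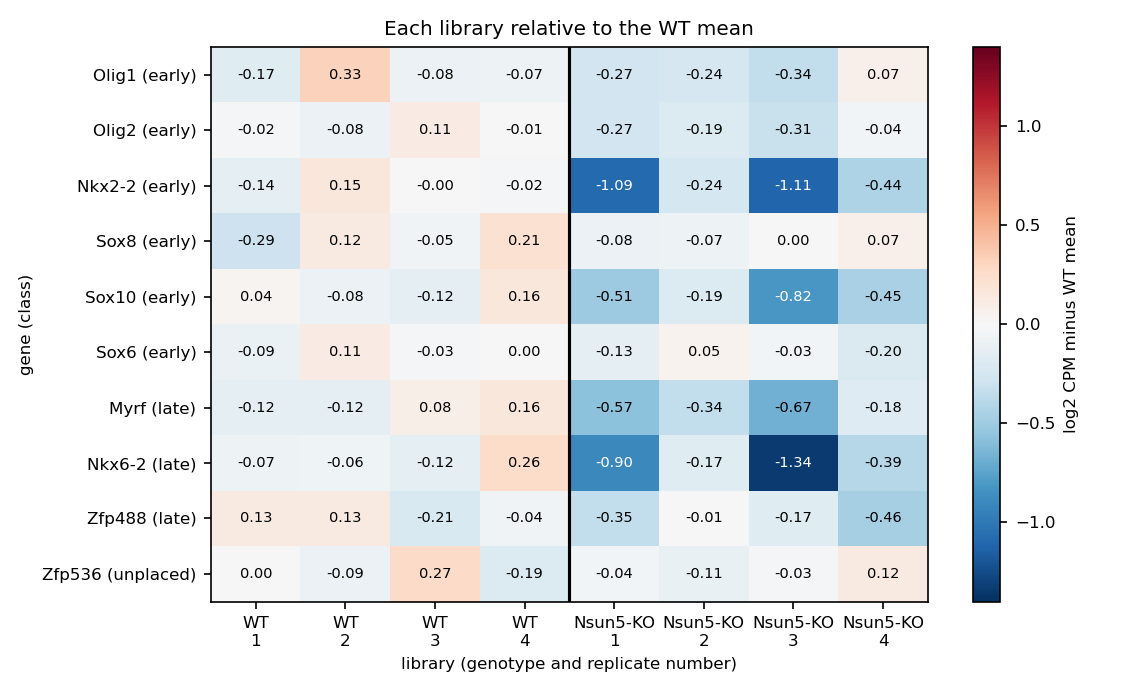
Log2 CPM of each factor (rows) in each library (columns) minus its WT mean, with blue for lower and red for higher. The darkest cells are Nkx6-2 and Nkx2-2 in replicates 1 and 3 labelled Nsun5-KO, from -0.90 to -1.34, while the rows of Sox8, Sox6 and Zfp536 stay between -0.29 and 0.27.

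The myelin genes under Sox10 and Myrf were also lowest in replicates 1 and 3 labelled Nsun5-KO. Of 20 listed genes 19 had a lower mean than in WT (median log2 fold change -0.41), where 51.4% of all genes tested were below WT. EdgeR called none of them, DESeq2 called 2 lower, 16 were lower at an unadjusted edgeR p below 0.05, and 11 had separate groups, all lower. Over all genes tested the shares were 0.262% lower by DESeq2, 5.05% lower at that unadjusted p and 2.71% separate and lower. The same shares apply to genes counted as lower in the other lists. Of the 16062 genes tested, 852 were higher at that unadjusted p and 481 had separate groups with higher values. DESeq2 called 52 of its 16058 tested genes higher. Relative to the WT mean the list stood at -0.54, -0.13, -0.62 and -0.27 in replicates 1 to 4 labelled Nsun5-KO, and within 0.084 of 0 in WT. Mal, a myelin proteolipid, was at -0.46 (SE 0.0918), Mobp at -0.41 (SE 0.0899) and Ugt8a, the enzyme of galactolipid synthesis, at -0.38 (SE 0.0924). Subtracting the list from each factor left Sox10 at -0.10 and Myrf at -0.052 on average in the libraries labelled Nsun5-KO, with Sox10 inside the WT range in all 4. Myrf was inside it (-0.13 to 0.19) except in replicate 2, at -0.21. By the same measure Sox8 was at 0.37, Zfp536 at 0.38 and Sox6 at 0.31, and Nkx6-2 and Nkx2-2 were at -0.31 and -0.33. All of these differences had overlapping groups.

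Of 12 markers of precursor cells 10 were below WT, with a median of -0.20. EdgeR and DESeq2 called 0 of them, and 2 were lower at an unadjusted edgeR p below 0.05. Neu4, a sialidase of precursors and newly formed oligodendrocytes, was at -0.45 (SE 0.14) with separate groups, and C1ql1 at -0.50 (SE 0.188) and the growth factor receptor gene Pdgfra at -0.24 (SE 0.111) with overlapping groups. The list stood at -0.24, -0.21, -0.24 and -0.088 in replicates 1 to 4 labelled Nsun5-KO. WT libraries ranged from -0.13 to 0.14.

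**Figure D4:**
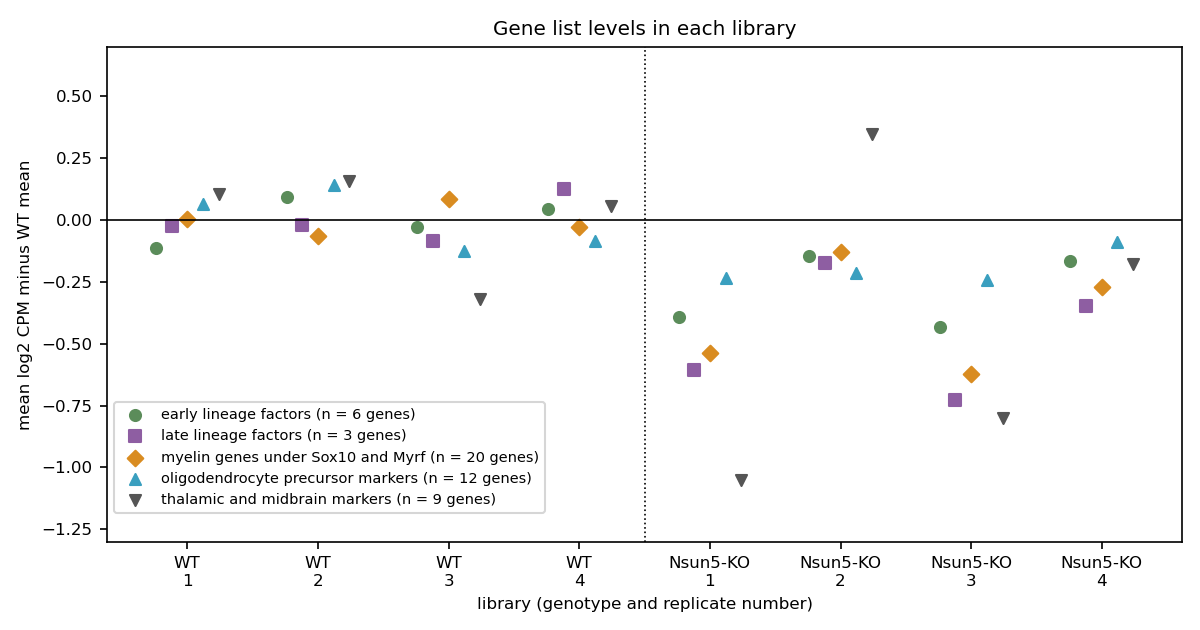
Mean log2 CPM of 5 gene lists minus the WT mean (vertical axis) in each library. The early factors, late factors and myelin genes are lowest in replicates 1 and 3 labelled Nsun5-KO. They are highest of that group in replicate 2, and so are the thalamic and midbrain markers. Those markers are also lowest in replicates 1 and 3, with replicate 1 the lowest. The precursor markers are lowest in replicates 1 and 3 too, but highest of that group in replicate 4.

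Other regulators of the lineage lay on both sides of WT. Of 25 listed genes that promote it, 24 were tested and 16 were below WT, with a median of -0.058. EdgeR and DESeq2 called none, and at an unadjusted p below 0.05 there were 3 lower and 2 higher. Sox9, the SoxE member of glial progenitors and astrocytes, was at 31.6 ± 2.77 CPM in WT against 24.65 ± 3.5 CPM (log2 fold change -0.36, edgeR adjusted p = 0.337) with separate groups. St18, a zinc finger gene of the Myt1 family, was at -0.66 (SE 0.233), and Klf9, a thyroid hormone target, was at 0.35 (SE 0.12), with each library labelled Nsun5-KO above every WT library. Among 15 genes that hold differentiation back, 9 were below WT, edgeR called none, DESeq2 called 1 higher, and 1 was lower and 3 higher at an unadjusted edgeR p below 0.05. Tmem98, a membrane protein that binds Myrf and blocks its cleavage, was at 14.3 ± 1.07 CPM in WT against 10.25 ± 1.42 CPM (log2 fold change -0.48, edgeR adjusted p = 0.313), again without overlap. Sox5, the SoxD relative of Sox6, was at 0.30 (SE 0.102) and Lingo1, a surface receptor of neurons and oligodendrocytes, at 0.36 (SE 0.0843).

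Other cell types and regions differed between the same libraries, and their part in the values above was not tested. Astrocyte (median -0.032), microglia (0.012) and endothelial (0.022) markers lay near WT, with 0 genes called by edgeR or DESeq2 and 1, a microglia marker, at an unadjusted edgeR p below 0.05. Of the pan-neuronal markers 9 of 10 were above WT (median 0.17), with a summed level of 7660 to 8128 CPM in WT and 8778 to 9298 CPM in those labelled Nsun5-KO. Cortical and hippocampal markers were at a median of 0.45 (DESeq2 called 3 higher) and ependymal markers at -1.1 (DESeq2 called 2 lower). DESeq2 called 1 pan-neuronal marker higher, and edgeR called none in these 3 lists. At an unadjusted edgeR p below 0.05, 5 pan-neuronal and 6 cortical and hippocampal markers were higher, and all 8 ependymal markers lower. Groups were separate in those directions for 3, 2 and 4 markers of these lists. Thalamic and midbrain markers summed to 373.3 to 400.1 CPM in WT and to 253.9 to 489.2 CPM in those labelled Nsun5-KO. Their levels relative to WT were -1.05, 0.35, -0.80 and -0.18 in replicates 1 to 4. They were lowest in replicates 1 and 3, as were Sox10, Myrf, Nkx6-2, Nkx2-2, Olig1 and Olig2. Of these markers 9 were tested and 6 were below WT, with 0 called by edgeR or DESeq2. Serotonergic neuron markers (4 tested) were also lowest in replicates 1 and 3, at -0.48, 0.63, -0.855 and 1.01. Ependymal markers, at -0.585, -1.55, -1.24 and -0.885, did not follow that order, nor did hypothalamic markers.

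The genes most like Sox10 in their variation within groups, out of 11794 with a mean of at least 5 CPM, were Mmp15, A230050P20Rik, Shisa2, Arl16 and Capza1 (r = 0.96 to 0.977 over 8 libraries). For Olig2 they were Axl, Tcirg1, Mcm4, Podxl and Gm10177 (r = 0.966 to 0.989), and for Myrf they were Szrd1, B4galt7, Ercc2, Ttyh2 and BC034090 (r = 0.961 to 0.968). Their log2 fold changes between the groups ran from -0.39 (Ttyh2) to 0.19 (Gm10177), and these correlations share library and depth. As the highest of 11794 over only 8 libraries they may be high by selection alone. Whether they exceed that was not tested.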

How the data were processed

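The authors deposited raw read counts per gene for 8 libraries and, per the file headers, FPKM values per gene and library, which are counts over gene length over a library constant (0.981 to 1.02 times the total). Per the submitters' processing notes reads were aligned with HISAT2 2.0.5 to mm10; no source used here names the counter or gene models. Per the labels' protocols a kit without strand marking was used.

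Counts were filtered with filterByExpr, scaled by TMM and tested by robust quasi-likelihood in edgeR 4.0.16 (R 4.3.3) over all genes, with genotype as the only term and Benjamini-Hochberg adjustment. CPM use the same scaling. Library levels of lists are means of log2 CPM (prior count 2) minus the WT mean. Pipelines were tested on simulated counts. The members, classes and lists were chosen with earlier results of these data known. By rule the text could name the members, Nsun5, the 3 lowest-p genes per list and the 5 genes most like Sox10, Olig2 and Myrf. Seen first and then chosen were Inpp5a, 2810468N07Rik, Gabra6 and Pcp2. Alternatives used DESeq2 1.42.0, limma 3.58.1 (voom, or log2 of FPKM plus 1 or 0.1), other scalings and filters, the replicate number as a block, other placings of members and libraries left out. Libraries of a group differed beyond sampling noise (chi-square per degree of freedom 7.22 to 20.4).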

Additional observations from a re-analysis of the deposited data

Results flagged for a closer look

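Nkx6-2 in WT replicate 4 (20.8 CPM) stood apart from the other 3 WT libraries (15.9 to 16.6 CPM) by more than is usual for a group of 4. Without it the log2 fold change of Nkx6-2 was -0.55 in place of -0.64. Olig1 relative to the myelin list in replicate 2 labelled Nsun5-KO (-0.11) stood below the other 3 libraries of its group (0.27 to 0.34). Chance gives such a gap in about 1 of 20 groups, and 66 groups were looked at.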

How the results depend on the processing

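Sox10, Myrf, Nkx6-2 and Nkx2-2 lay below WT in each of the 19 alternatives, and 18 of the 19 called the same 0 members as the reported test. Without a low-count filter edgeR called 68 genes, 2 of them members. DESeq2 called 94 genes and 0 members. With single libraries left out edgeR called 0 to 2 genes, the 2 without replicate 4 labelled Nsun5-KO. Late minus early was -0.24 in the reported fit and stayed negative throughout, from -0.37 without both WT replicates 1 and 2, the farthest value, to -0.16 with class means. It was -0.24 with Sox10 in neither class, -0.34 with Nkx2-2 among the late factors and -0.24 with Zfp536 among the early ones. Sox8 turned with single libraries left out, from -0.12 to 0.041, and so did Zfp536, from -0.086 to 0.079. Zfp536 was also at 0.00097 without both replicates 1 and 3 labelled Nsun5-KO. With the replicate number as a block, late minus early was -0.24, edgeR called 0 genes, and Olig2 lost its unadjusted p below 0.05. Olig2 also lost it without the low-count filter, with DESeq2 and without both replicates 1 and 3 labelled Nsun5-KO. The same held without 1 of WT replicates 1, 3 and 4 or 1 of replicates 1, 2 and 3 labelled Nsun5-KO. Nkx6-2 lost it without both WT replicates 1 and 2. Both Nkx6-2 and Nkx2-2 lost it without both replicates 1 and 3 labelled Nsun5-KO. The replicate numbers did not pair the libraries (correlations of -0.21 to 0.063 between libraries of the same number), and no library was closest to its own number. The closest matches were mutual, WT replicates 1, 2, 3 and 4 with replicates 3, 4, 1 and 2 labelled Nsun5-KO. These matches were not tested. Depth limits Nkx2-2 and Zfp488, with at most 85 counts in a library.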

Other observations

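Ratios within the lineage, each relative to its WT mean, separated the groups in 1 of 10 pairs of factors. Myrf over Olig2 was at -0.30, -0.15, -0.37 and -0.14 (log2) in replicates 1 to 4 labelled Nsun5-KO and at -0.10 to 0.17 in WT. Sox10 over Sox8 was at -0.43, -0.12, -0.82 and -0.52 against -0.20 to 0.33, with replicate 2 inside the WT range. Myrf over Sox10 averaged 0.052 (WT SD 0.154) and Olig1 over Olig2 0.0070 (WT SD 0.279). The pairs were chosen with results of these data known and carry no test.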
